A study of Mus musculus with 21 samples.

Results

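Embryoid bodies (EB) grown for 16 days from a mouse embryonic stem (ES) cell line were compared with the undifferentiated cells of that line. The comparison took the 3 arrays labelled as whole EB derived from ES cells and the 3 labelled as undifferentiated ES cells, 6 of the 21 arrays of the series. The remaining 15 arrays hold cardiomyocytes of the same line, the corresponding stages of an induced pluripotent stem (iPS) cell line and cultured tail tip fibroblasts of 8 week old F1 mice (129Sv x c57BL6) at passages 2, 3 and 4. All 6 arrays carry RNA of 1 line, aPIG D3, in which a cardiac reporter and selection construct (αPIG) is present in the EB and in the undifferentiated cells alike. EB arrays 1, 2 and 3 and ES arrays 1, 2 and 3 came from passages 7, 9 and 10. EB formed on a shaker and then differentiated spontaneously in spinner flasks, and they received no puromycin, unlike the cardiomyocytes (CM) taken from the same batches. The undifferentiated cells were cultured with LIF on murine embryonic fibroblasts that had been inactivated with Mitomycin C. Whole EB hold every cell type that formed, so in this bulk RNA fewer cells of a type and less RNA per cell cannot be told apart.

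Mouse ES cells renew themselves under a network of transcription factors centred on Pou5f1 (Oct4), Sox2 and Nanog, and the cytokine LIF helps to hold them in that state. When LIF is withdrawn and the cells aggregate, they leave it and form derivatives of all germ layers inside the EB. Cardiac muscle is the best known of these, because patches of such EB start to beat.

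The bead arrays measured 45281 probes, and 21047 of them were tested because 3 or more of the 21 arrays detected them (detection p under 0.01). Levels are log2 normalised intensities, on which an added offset of 16 sets a floor of 4, so that differences of dim probes are understated. A probe was called higher or lower at an adjusted p under 0.05 (limma, Benjamini-Hochberg over all tested probes). Among the tested probes, 17991 carry 1 gene symbol, and they stand for 11501 genes. The 2 deposited tables disagree on which identifier belongs to which row, and genes are named through the identifiers of the non-normalized table. Under those, probes of the same gene had a median correlation of 0.816 over the arrays, against -0.016 for probes of different genes. Under the identifiers of the normalized table the same-gene median was 0.143.

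EB arrays detected 16227 to 17866 probes, against 13231 to 16607 on the ES arrays. The means were 17083 ± 822 and 14477 ± 1853 (SD, n = 3 each), with an exact permutation p of 0.2, where the smallest p this design allows is 0.1. EB replicates 2 and 3 correlated at 0.993 across probes, whereas EB replicate 1 correlated with them at 0.980 and 0.981. EB replicate 1 exceeded both other EB arrays by more than 1 log2 unit for 160 probes and lay below them by as much for 210 probes. For EB replicates 2 and 3 these numbers were at most 5. Among ES arrays, replicate 2 was lower than both others by more than 1 log2 unit for 187 probes. Most list results that rest on EB replicate 1 are therefore also given without it, and single genes mostly by their values on each array.

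Of the tested probes, 3491 were higher in EB (16.6% of those tested) and 3520 were lower (16.7%), and 33.3% were called in all. At least 2-fold changes were counted for 1154 of the higher and 673 of the lower probes, and at least 8-fold changes for 65 and 5. The median change over all tested probes was -0.004 on the log2 scale. The split between directions rests on the quantile scaling, which gives each array the same distribution of values. With arrays scaled to a common median the all-probe median was 0.253, and 4061 probes were higher against 308 lower, so that 93% of calls were higher in place of 49.8%. Of the 7011 probes called under quantile scaling 3460 were also called under median scaling, and 545 had the opposite sign there. Without EB replicate 1 the counts were 3343 higher and 3319 lower. Detection moved mostly one way, since 959 probes were detected on all 3 EB arrays and on no ES array, against 51 probes with the opposite pattern. Of the 959 probes 746 were also called higher, and all 51 were called lower. Mean raw intensity was 161.9, 118.9 and 159.2 on the EB arrays, against 161, 81.9 and 113.7 on the ES arrays. The part of array brightness in the detection counts was not tested. The plot of change by level shows all tested probes.

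**Figure D1:**
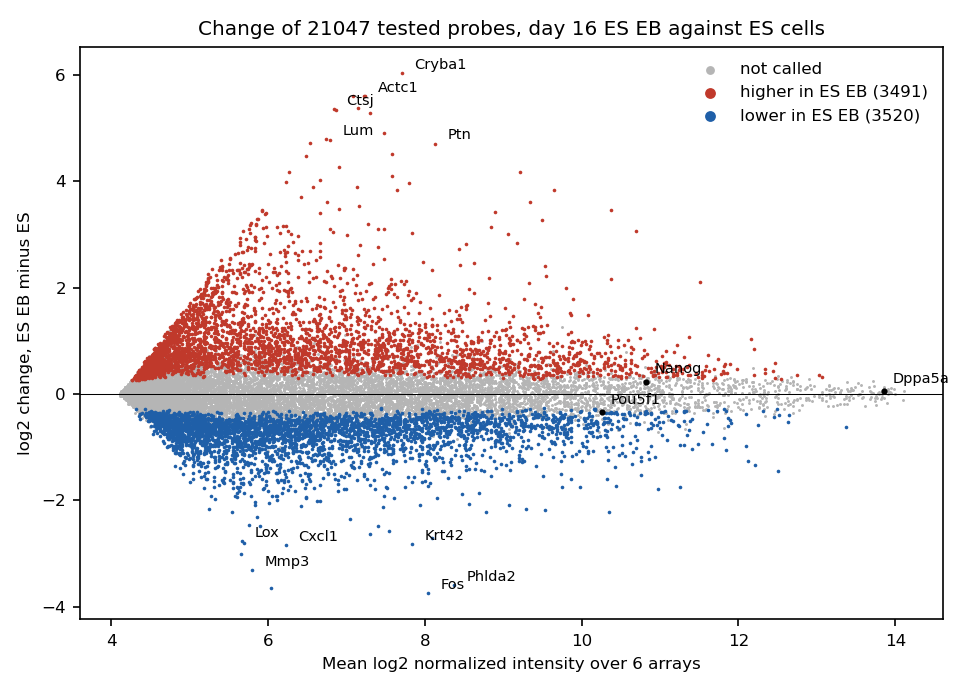
Change of each of the 21047 tested probes (log2, EB minus ES cells, vertical axis) against its mean level over the 6 arrays (log2 normalised intensity, horizontal axis). Red points are the 3491 probes called higher and blue points the 3520 called lower in EB. The highest changes lie above 5, the lowest below -3, and the black points Pou5f1, Nanog and Dppa5a lie near 0.

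The genes that define the undifferentiated state divided into members that fell in EB and members, Pou5f1 and Nanog among them, that were not called. Of 38 pluripotency genes 34 were tested, and 13 fell, none rose and 21 were not called, with a median change of -0.66 beside -0.004 for all tested probes. Over all tested probes 16.7% were lower. The count of falls shrank to 4 with 1 rise under median scaling, where the list's median was -0.31. Without EB replicate 1, 13 members fell and 3 rose, and the median was -0.15.

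Pou5f1, the transcription factor at the centre of the pluripotency network, had 9.40, 10.36 and 10.51 in EB, against 10.41, 10.59 and 10.29 in ES cells. EB replicate 1 alone lay below the ES arrays. The change of -0.34 was not called (limma adjusted p = 0.30, n = 3 each), and its 95% interval ran from -0.84 to 0.16. Nanog, a partner of Pou5f1, had 10.29, 11.27 and 11.25 in EB, against 11.08, 10.48 and 10.57 in ES cells, again with EB replicate 1 lowest and with overlapping groups. Its interval of change was -0.37 to 0.83. Dppa5a, an RNA-binding protein of early embryonic cells, read 13.52, 14.04 and 14.08 in EB, against 13.99, 13.68 and 13.82 in ES cells. Dppa4, a chromatin factor of pluripotent cells, read 11.24, 11.38 and 11.39 in EB, against 11.38, 11.44 and 11.36 in ES cells. The intervals of these changes were -0.42 to 0.52 and -0.55 to 0.44, so a 2-fold change of either gene in either direction lies outside them. Zfp42 (Rex1), a marker of the naive ES state, had 9.52, 11.48 and 10.86 in EB, against 10.77, 10.86 and 10.81 in ES cells. Sox2 read 7.10, 8.62 and 8.36 in EB, against 8.58, 7.62 and 8.41 in ES cells.

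EB replicate 1 lay more than 1 log2 unit below both other EB arrays for 10 of the 34 pluripotency genes and above them for 3, as the map of array values shows. Klf4, one of the factors used to reprogram fibroblasts, had 6.18 in EB replicate 1 and 8.70 and 9.09 in EB replicates 2 and 3, against 9.44, 8.11 and 8.95 in ES cells. Esrrb, a nuclear receptor that sustains self-renewal, had 9.95 in EB replicate 1 and 11.53 and 11.50 in the others, against 11.59, 11.63 and 11.73 in ES cells. Fbxo15, a target of Pou5f1, and Tcl1, a co-activator of AKT, had the same order of EB arrays. Dnmt3b, a de novo DNA methyltransferase, ran the other way, with 12.33 in EB replicate 1 and 10.19 and 10.16 in the others, against 11.90, 11.95 and 11.95 in ES cells.

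Among the members that fell, the inhibitors of Nodal signalling changed most. Lefty1 had 8.85, 8.35 and 8.12 in EB, against 10.38, 10.96 and 10.52 in ES cells, a change of -2.18 ± 0.18 (SE; limma adjusted p = 1.7e-07, n = 3 each). Lefty2 had 8.32, 8.23 and 8.09 in EB, against 10.18, 10.55 and 10.38 in ES cells, a change of -2.16 ± 0.30. For both genes every EB array lay below every ES array, where 41.1% of all tested probes had groups that did not overlap. Tdgf1 (Cripto), the co-receptor for Nodal, fell by 1.51 on the log2 scale, and Utf1, a chromatin-bound factor of undifferentiated cells, fell by 1.35. Lin28a, an RNA-binding protein that blocks let-7 maturation, had 6.44, 4.83 and 4.88 in EB, against 7.10, 7.19 and 6.79 in ES cells. Dppa3 (Stella), a factor of the early embryo and germ line, had 8.44, 7.08 and 7.02 in EB, against 8.96, 9.09 and 9.24 in ES cells. Under median scaling the falls of Utf1 (-0.85), Dnmt3b (-0.82) and Otx2 (-0.29) were not called. Those of Lin28a (-1.65) and Dppa3 (-1.58) were not called either, at -0.95 and -1.06 (limma adjusted p = 0.13 and 0.072, n = 3 each).

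**Figure D2:**
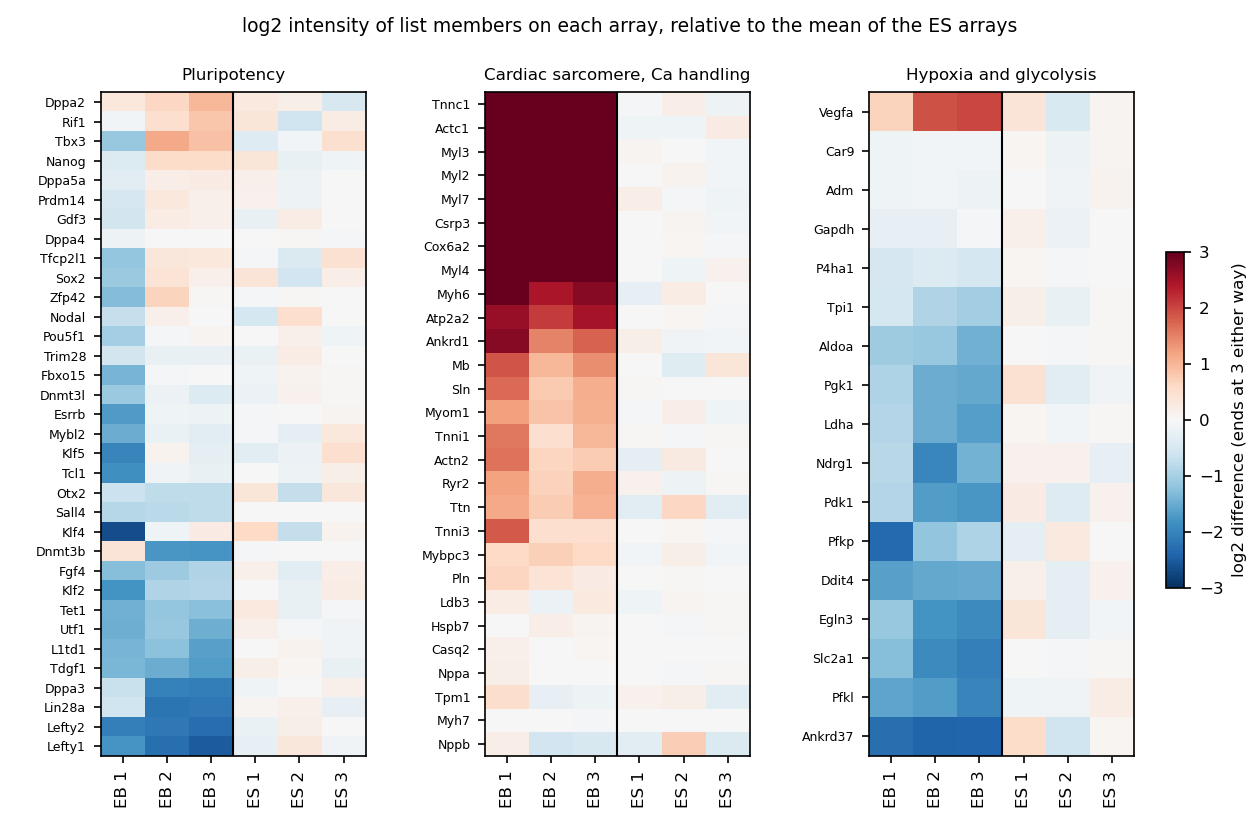
Level of each tested member of 3 gene lists on each array, as the log2 difference from the mean of the 3 ES arrays (colour, ended at 3 in either direction), with the 3 EB arrays left of the line and the 3 ES arrays right of it. EB replicate 1 differs from the other EB arrays for many pluripotency genes, most sarcomere genes are high on all 3 EB arrays, and most genes of the hypoxia and glycolysis list are low on all 3.

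Several light chain, actin and troponin genes of the heart rose far above their ES levels, while other genes of the contractile apparatus rose by about 1 log2 unit or were not called. Of 28 tested members of the cardiac sarcomere and calcium handling list (30 in the list), 19 rose and none fell, with a median change of 1.04, where 16.6% of all tested probes were higher. The 9 members not called were Myh7, Tpm1, Pln, Casq2, Nppa, Nppb, Sln, Ldb3 and Hspb7, and called members such as Ttn (0.99), Tnni3 (0.94) and Mybpc3 (0.64) rose less. Without EB replicate 1 the number that rose was 17. Tnnc1, the calcium-binding subunit of cardiac troponin, had 11.17, 9.28 and 9.62 in EB, against 4.37, 4.60 and 4.26 in ES cells. It was not detected on any ES array, and the EB level was at least 36.1-fold higher. For such a probe the EB mean was set against an ES mean in which each array counted at no less than the dimmest detected probe of that array. Actc1, cardiac alpha actin, had 10.96, 9.43 and 9.75 in EB, against 4.31, 4.31 and 4.69 in ES cells, at least 36.6-fold higher. Myl3, the ventricular essential light chain, was at least 32.7-fold higher, with 10.46, 9.40 and 9.80 in EB, against 4.37, 4.28 and 4.21 in ES cells. Myl2, the ventricular regulatory light chain, was at least 31.8-fold higher, with 10.39, 9.43 and 9.71 in EB, against 4.45, 4.57 and 4.37 in ES cells. For all 4 genes EB replicate 1 was the highest EB array, and the groups did not overlap, as was so for 41.1% of all tested probes.

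Myl7, the atrial regulatory light chain, had 10.35, 9.33 and 10.15 in EB, against 4.85, 4.60 and 4.53 in ES cells, and its change was 5.29 ± 0.30 (SE; limma adjusted p = 3.2e-09, n = 3 each). Csrp3, a Z-disc protein of striated muscle, was at least 14.8-fold higher, and Cox6a2, the muscle form of a cytochrome c oxidase subunit, at least 11.4-fold higher. Myl4, the atrial essential light chain, rose by 3.84 on the log2 scale and was detected in ES cells too. Myh6, alpha myosin heavy chain, whose promoter drives the αPIG construct, had 8.59, 7.69 and 7.96 in EB, against 5.00, 5.45 and 5.26 in ES cells, a change of 2.84 ± 0.32 (SE; limma adjusted p = 4.3e-06, n = 3 each). Nppa, the atrial natriuretic peptide, and Myh7, beta myosin heavy chain, were detected on none of the 6 arrays. Pln, the inhibitor of the calcium pump, had 4.78, 4.54 and 4.39 in EB, against 4.13, 4.17 and 4.12 in ES cells, and was not called (limma adjusted p = 0.052, n = 3 each). For Atp2a2, the calcium pump itself, the probe used rose by 2.41 while another tested probe of the gene was called in the opposite direction.

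The promoters of the sarcomere genes that rose were read for the CArG box, the sequence bound by serum response factor (CC, then 6 bases that are each A or T, then GG), in windows from 250 bases before to 50 after the gene start (RefSeq, GRCm38.p6). Of the 19 genes 17 had a window, and 4 of these (23.5%) held the box on either strand, against 488 of the 27025 genes with a window (1.81%). Over all tested members of the list, called or not, 5 of 25 held it (20.0%), so the box was not limited to genes that rose. TATAAA, searched on both strands, was in 3 of the 17 (17.6%) and in 6 of the 25 tested members (24.0%). Among genes with a tested probe it was in 9.75%, and among all genes with a window in 15.7%. A match is one of letters only, and binding was not measured. The 4 windows are shown because they belong to risers of this list, with the box in capitals and each sequence 5′ to 3′ along the gene's strand. They lie at chr2:114052826-114053125 (minus strand) for Actc1, chr9:110763428-110763727 (plus) for Myl3, chr11:5898733-5899032 (minus) for Myl7 and chr17:71019307-71019606 (plus) for Myom1, a protein of the M-band. The box starts 47, 85, 61 and 99 bases before the gene start in these windows.
Actc1: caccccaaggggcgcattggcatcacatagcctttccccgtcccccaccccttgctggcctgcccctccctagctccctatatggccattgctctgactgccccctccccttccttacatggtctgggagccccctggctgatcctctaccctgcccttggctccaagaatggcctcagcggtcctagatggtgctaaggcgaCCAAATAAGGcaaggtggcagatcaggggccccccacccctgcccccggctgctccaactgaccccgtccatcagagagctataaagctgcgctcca
Myl3: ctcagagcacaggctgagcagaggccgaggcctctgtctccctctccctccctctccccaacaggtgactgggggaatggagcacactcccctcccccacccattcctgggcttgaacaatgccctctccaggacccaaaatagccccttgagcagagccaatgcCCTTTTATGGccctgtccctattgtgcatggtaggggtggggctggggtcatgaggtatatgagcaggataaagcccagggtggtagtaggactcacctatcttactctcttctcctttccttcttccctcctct
Myl7: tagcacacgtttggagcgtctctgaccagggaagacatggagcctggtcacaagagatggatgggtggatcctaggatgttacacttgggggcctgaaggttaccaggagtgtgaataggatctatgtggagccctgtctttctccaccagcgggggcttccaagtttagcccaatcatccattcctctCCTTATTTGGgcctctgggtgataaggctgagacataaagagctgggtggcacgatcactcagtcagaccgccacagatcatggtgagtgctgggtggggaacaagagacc
Myom1: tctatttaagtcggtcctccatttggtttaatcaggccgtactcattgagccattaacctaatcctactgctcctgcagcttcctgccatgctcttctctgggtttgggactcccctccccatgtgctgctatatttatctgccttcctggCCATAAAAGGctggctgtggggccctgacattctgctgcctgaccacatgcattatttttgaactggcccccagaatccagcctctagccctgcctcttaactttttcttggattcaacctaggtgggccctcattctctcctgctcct

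Transcription factors of the heart included 4 that rose. Of 11 tested factors (12 in the list) 4 rose and none fell, where 16.6% of all tested probes were higher. The median change was 0.14, and it was 0.03 without EB replicate 1 and 0.07 without ES replicate 3. Gata6, a factor of heart and endoderm, had 8.24, 8.16 and 8.40 in EB, against 4.52, 4.50 and 4.66 in ES cells, at least 10.7-fold higher, with the EB arrays close together. Isl1, which marks cardiac progenitors, was at least 4.93-fold higher, with 7.57, 6.94 and 6.95 in EB, against 4.50, 4.30 and 4.40 in ES cells. Mef2c, an activator of muscle genes, was at least 2.66-fold higher, and Tbx20, a T-box factor of the heart, at least 1.11-fold higher. Gata4 and Tbx5 were detected on none of the 6 arrays, and Nkx2-5 on 1 EB array, with 4.60, 4.38 and 4.36 in EB, against 4.41, 4.64 and 4.23 in ES cells. These 3 are among the best known cardiac factors, and their groups overlapped near the floor.

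Genes of the earlier mesoderm were mostly dim. Of 15 tested members (22 in the list) 7 rose and 1 fell, beside 16.6% and 16.7% of all tested probes. The median was 0.24. Foxc1, a forkhead factor of paraxial and cardiac mesoderm, had 5.93, 5.91 and 5.96 in EB, against 4.41, 4.49 and 4.26 in ES cells, at least 2.12-fold higher. Snai2, a factor of epithelial to mesenchymal transition, rose by 1.47, and Twist1, with a like role, by 0.85. Prrx1, a homeobox factor of limb and head mesenchyme, rose by 1.02, a call that was lost without EB replicate 1 (0.77; limma adjusted p = 0.056, n = 2 against 3). Mixl1, a homeobox gene of the primitive streak, was detected on no array of either group.

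Endoderm and liver genes included some of the furthest risers. Of 28 tested members (36 in the list) 12 rose and 2 fell, beside 16.6% and 16.7% of all tested probes. The median was 0.82, or 0.45 without EB replicate 1. Ttr, the thyroxine carrier made by visceral endoderm and liver, had 9.59, 8.23 and 8.87 in EB, against 4.17, 4.22 and 4.15 in ES cells, at least 16.5-fold higher. Spink1, a trypsin inhibitor, had 9.97, 9.71 and 9.68 in EB, against 6.83, 7.73 and 6.63 in ES cells, a change of 2.72 ± 0.25 (SE; limma adjusted p = 6.9e-07, n = 3 each). Apoa1, the main protein of high density lipoprotein, was at least 4.17-fold higher. The forkhead pioneer factor Foxa1 was at least 2.44-fold higher and the endoderm factor Sox17 at least 1.50-fold higher.

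Several genes of this list were highest in EB replicate 1. Afp, the fetal serum protein, had 5.90, 4.54 and 4.90 in EB, against 4.16, 4.36 and 4.22 in ES cells, and was not called (limma adjusted p = 0.089, n = 3 each). Without EB replicate 2 it was called higher, at 1.15 (limma adjusted p = 0.043, n = 2 against 3). Fga, a fibrinogen chain, read 6.30, 4.23 and 4.33 in EB, against 4.14, 4.23 and 4.17 in ES cells. Krt8, a keratin of simple epithelia, had 10.36, 7.92 and 7.99 in EB, against 7.10, 7.10 and 6.64 in ES cells, and its partner Krt18 had 9.10, 6.86 and 6.63 in EB, against 5.51, 6.25 and 5.95 in ES cells. EB replicate 1 was the highest EB array for all 4, and it lay more than 1 log2 unit above both other EB arrays for 7 of the 28 members of this list.

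For no neural gene did EB replicate 1 lie more than 1 log2 unit above or below both other EB arrays. Of 17 tested members (27 in the list) 11 rose and 2 fell, beside 16.6% and 16.7% of all tested probes. The median was 1.42, and the counts were the same without EB replicate 1. Zic1, a zinc finger factor of the dorsal neural tube, had 7.26, 7.88 and 7.82 in EB, against 4.20, 4.15 and 4.29 in ES cells, at least 6.97-fold higher. Otx1, a homeobox factor of the forebrain, had 7.08, 7.55 and 7.73 in EB, against 4.28, 4.22 and 4.25 in ES cells, at least 6.08-fold higher. Sox11, a factor of immature neurons, had 10.66, 10.48 and 10.56 in EB, against 7.62, 7.51 and 7.54 in ES cells, a change of 3.01 ± 0.20 (SE; limma adjusted p = 1.9e-08, n = 3 each). Neurog2, a proneural factor, was at least 2.31-fold higher and Dcx, a microtubule protein of migrating neurons, at least 2.06-fold higher. En1, a homeobox gene of the midbrain and hindbrain border, rose by 1.48. The 2 members that fell were Crmp1 (-0.99) and Stmn2 (-0.72), and neither was called under median scaling.

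In the surface epithelium list 2 keratins rose and 1 fell, and the adhesion and junction genes Cdh1, Cldn4 and Cldn6 fell. Of 10 tested members (14 in the list) 2 rose and 6 fell, beside 16.6% and 16.7% of all tested probes. The median was -0.96, and under median scaling 2 rose and 1 fell. EB replicate 1 lay more than 1 log2 unit above both other EB arrays for 6 of the 10. Without it 2 rose and 6 fell, and the median was -1.3. Krt14, the keratin of basal epidermis, had 9.84, 7.94 and 8.17 in EB, against 5.06, 5.45 and 5.01 in ES cells, a change of 3.48 ± 0.34 (SE; limma adjusted p = 1.1e-06, n = 3 each). Krt15, also basal, was at least 2.72-fold higher. Cdh1 (E-cadherin), the adhesion molecule of epithelia and of ES cells, had 8.38, 7.73 and 7.48 in EB, against 9.27, 9.28 and 9.29 in ES cells, a fall of 1.42 that was also called under median scaling. Esrp1, an epithelial splicing regulator, had 9.01, 7.06 and 6.91 in EB, against 9.18, 9.16 and 9.32 in ES cells, so EB replicate 1 stood at the ES level. Its fall of 1.56 and that of the tight junction gene Cldn4 (-1.45) were not called under median scaling (limma adjusted p = 0.13 and 0.060, n = 3 each).

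Endothelial genes moved in both directions. Of 15 tested members (20 in the list) 6 rose and 4 fell, beside 16.6% and 16.7% of all tested probes, and 2 fell without EB replicate 3, as without ES replicate 2. The median was 0.38, or 0.01 without ES replicate 2 and 0.18 without ES replicate 3. Emcn (endomucin), a surface sialomucin of venous endothelium, had 6.93, 7.41 and 7.73 in EB, against 4.21, 4.21 and 4.12 in ES cells, at least 5.67-fold higher. Ramp2, the partner of the adrenomedullin receptor, rose by 1.59, and Esam, an endothelial adhesion molecule, by 1.50. Sox7, which is counted here and among endoderm genes, was at least 1.65-fold higher. Vwf (von Willebrand factor) had 4.34, 4.25 and 4.32 in EB, against 5.22, 5.56 and 5.90 in ES cells, at least 2.05-fold lower in EB. Tek, the angiopoietin receptor, had 5.94, 5.51 and 5.83 in EB, against 6.40, 6.66 and 6.41 in ES cells, and its fall of 0.73 was not called under median scaling (-0.11). Pecam1 (CD31), which ES cells also express, had 5.53, 6.80 and 6.68 in EB, against 6.81, 7.29 and 6.84 in ES cells, and was not called (limma adjusted p = 0.13, n = 3 each).

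**Figure D3:**
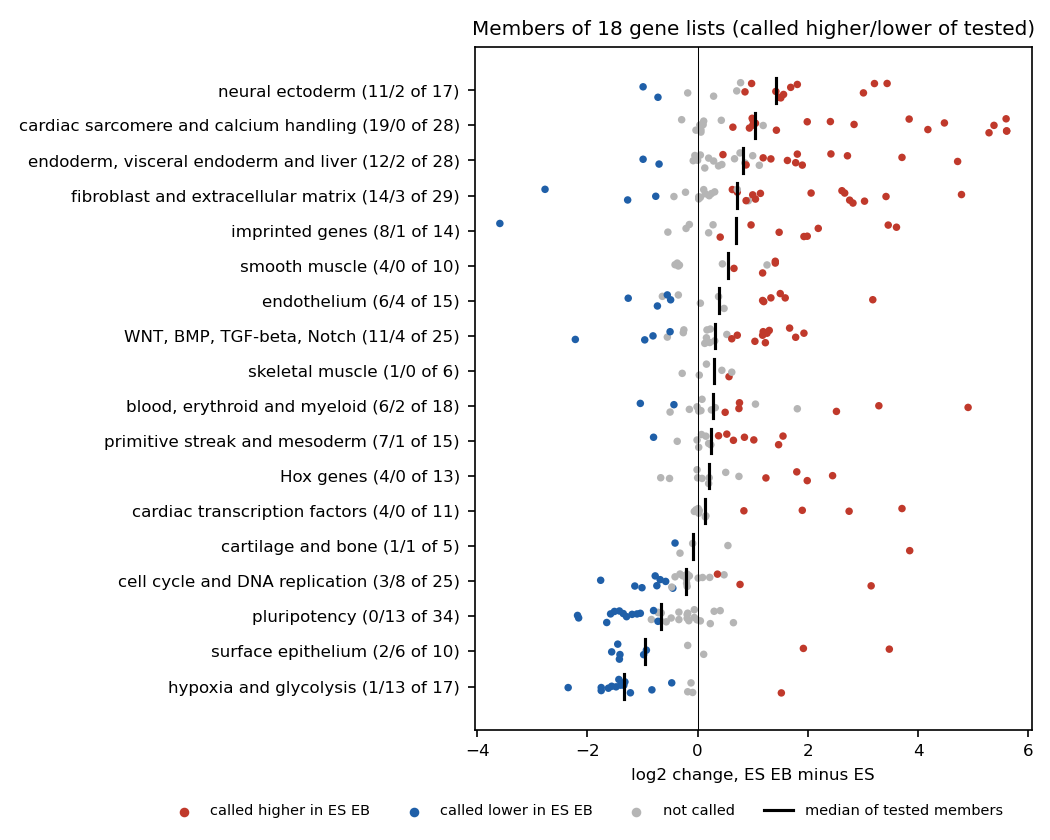
Change of each tested member (points, log2, EB minus ES cells) of the 18 gene lists, ordered by their medians (black ticks), with the numbers called higher and lower and tested beside each name. Medians run from 1.42 for neural ectoderm and 1.04 for the cardiac sarcomere to -1.34 for hypoxia and glycolysis.

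In the blood list a minority of myeloid genes rose and the embryonic globins were high on 1 EB array. Of 18 tested members (26 in the list) 6 rose and 2 fell, beside 16.6% and 16.7% of all tested probes, with a median of 0.28. Without EB replicate 1, 5 rose and 3 fell, and the median was 0.10. Lyz2, the lysozyme of macrophages, had 7.30, 7.41 and 7.84 in EB, against 4.14, 4.15 and 4.40 in ES cells, at least 6.35-fold higher. Its near-identical copy Lyz1 rose by 4.91 at the probe used, the only 1 of its 3 tested probes that was called higher. Signal could be shared between probes of Lyz1 and Lyz2, so the 2 genes are not separate evidence. C1qb, a complement chain made by macrophages, had 6.95, 6.53 and 6.49 in EB, against 4.09, 4.15 and 4.17 in ES cells, at least 3.49-fold higher. Csf1r, Spi1 and Ptprc, which define the lineage, were not called, nor were Fcer1g, Itgb2, C1qa and Laptm5, and Coro1a, an actin-binding protein of leukocytes, was lower (-1.04). Hbb-bh1, an embryonic beta-like globin, had 9.49, 4.48 and 4.23 in EB, against 4.18, 4.45 and 4.14 in ES cells, and was not called (limma adjusted p = 0.15, n = 3 each). Hbb-y, another embryonic globin, had 7.51, 4.20 and 4.12 in EB, against 4.23, 4.23 and 4.22 in ES cells. Both were detected on EB replicate 1 alone among the 6 arrays, and without EB replicate 3 Hbb-bh1 was called higher (2.73; limma adjusted p = 0.040, n = 2 against 3).

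Some matrix genes rose, others were not called, and Lox, Fbln2 and S100a4 fell. Of 29 tested members of the fibroblast and extracellular matrix list (30 in the list) 14 rose and 3 fell. The shares of all tested probes were 16.6% and 16.7%. The list's median was 0.72, and 9 rose without EB replicate 1, as without ES replicate 3. Col1a2, Col5a1, Col5a2, Fn1, Postn, Bgn, Loxl1 and Thbs1 were among the 12 not called. Lum (lumican), a collagen-binding proteoglycan, had 9.38, 9.00 and 9.17 in EB, against 4.54, 4.46 and 4.20 in ES cells, at least 20.1-fold higher. Dcn (decorin), a related proteoglycan, had 10.66, 10.52 and 10.66 in EB, against 7.36, 7.10 and 7.11 in ES cells, a change of 3.42 ± 0.32 (SE; limma adjusted p = 7.9e-07, n = 3 each). Pdgfra, a growth factor receptor of mesenchyme and primitive endoderm, rose by 3.03, and Col4a1, a basement membrane collagen, by 2.82. Col1a1, the main collagen of connective tissue, had 7.03, 6.42 and 6.71 in EB, against 5.27, 5.91 and 5.85 in ES cells. Its rise of 1.05 was near the threshold (limma adjusted p = 0.048, n = 3 each). The call was lost when any 1 of the 6 arrays was left out and with the replicate number as a block in the model. It was lost too in the normalized table and without the filter on dim probes, with limma adjusted p of up to 0.15 over these fits.

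Lox, the enzyme that crosslinks collagen, fell to 4.47, 4.19 and 4.19 in EB, against 6.93, 7.26 and 6.98 in ES cells, a change of -2.77 ± 0.38 (SE; limma adjusted p = 3.2e-05, n = 3 each). The ES cells had been grown on embryonic fibroblasts. Lox averaged 13.82 in the tail tip fibroblasts, and Mmp3, Cxcl1 and Ccn2, which also fell, averaged 11.54, 13.13 and 11.94 there. The summed normalised intensity of the 29 members ran from 8507 to 10066 in EB and from 3990 to 4183 in ES cells, against 89432 to 104411 in the fibroblasts. Bgn (biglycan), which averaged 13.16 in the fibroblasts, had 8.69, 8.71 and 8.92 in EB, against 8.80, 8.50 and 8.97 in ES cells. The part of fibroblast RNA in these changes was not tested.

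Other mesenchymal and muscle lists held few calls. Of 10 tested smooth muscle genes (13 in the list) 4 rose and none fell, beside 16.6% and 16.7% of all tested probes. The median was 0.56, and without EB replicate 1 there were 2 in each direction, with a median of 0.37. Myocd, the co-activator of serum response factor in smooth and cardiac muscle, was at least 1.89-fold higher, and Mylk, myosin light chain kinase, at least 1.71-fold higher. Acta2, smooth muscle actin, had 10.97, 9.91 and 10.24 in EB, against 8.59, 10.20 and 8.57 in ES cells, overlapping through ES replicate 2. It was not called, and without that array it was (1.80; limma adjusted p = 0.023, n = 3 against 2). The calls of Des (desmin, 0.66) and of Myl9, a regulatory light chain (1.18), were lost without EB replicate 1. That of Myl9 was lost also without ES replicate 1 or 3 and with the replicate number as a block. Of 6 tested skeletal muscle genes 1 rose, a share like the 16.6% of all tested probes, and without EB replicate 1 the list's median was 0.00 in place of 0.30. It was Tnni2 (0.57), a troponin of fast muscle, and that call was lost without EB replicate 1 or 3 or ES replicate 2 or 3. Sox9, the factor of cartilage and of many progenitors, had 9.36, 9.55 and 9.76 in EB, against 5.06, 6.35 and 5.73 in ES cells, a change of 3.85 ± 0.27 (SE; limma adjusted p = 3.7e-08, n = 3 each). It was the only riser of 5 tested cartilage and bone genes, beside 16.6% of all tested probes. Matn1, a matrix protein of cartilage, fell by 0.41, a call not made under median scaling. Neither group had Matn1 detected on all its arrays, so the size of this fall is not exact.

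The Hox genes, homeobox factors that set position along the body axis, gave calls in the A and B clusters. Of 13 tested genes (28 in the list) 4 rose and none fell, where 16.6% of all tested probes were higher. The median was 0.21, and without ES replicate 2 it was 0.34, with 1 member lower. Hoxb2 had 7.41, 6.41 and 6.40 in EB, against 4.44, 4.21 and 4.21 in ES cells, at least 3.70-fold higher. Hoxb4 was at least 2.73-fold higher, Hoxa2 at least 2.32-fold higher and Hoxb7 at least 1.78-fold higher. The tested genes of the HoxC cluster, Hoxc6, Hoxc9 and Hoxc10, were not called.

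Imprinted genes, expressed from the copy of 1 parent, included far risers and a far fall. Of 14 tested (19 in the list) 8 rose and 1 fell, beside 16.6% and 16.7% of all tested probes. The median was 0.69. Igf2, the fetal growth factor, had 12.43, 11.82 and 12.10 in EB, against 8.80, 8.28 and 8.89 in ES cells, a change of 3.46 ± 0.28 (SE; limma adjusted p = 1.7e-07, n = 3 each). Dlk1, a Notch-related surface protein of progenitors, had 11.08, 11.05 and 11.30 in EB, against 7.55, 7.78 and 7.26 in ES cells, a change of 3.61 ± 0.20. Peg3, a zinc finger protein, rose by 2.19, and Ndn (necdin) by 1.99. Phlda2, a repressor of placental growth, moved the other way, with 7.54, 6.31 and 5.88 in EB, against 9.94, 10.58 and 9.97 in ES cells, a change of -3.59 ± 0.35 (SE; limma adjusted p = 1.2e-06, n = 3 each). Without EB replicate 1, 7 members rose and 2 fell, and the median was 0.40.

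In the cell cycle and DNA replication list Ccnd2 rose furthest and Ccne1 fell furthest, while the other G1 cyclins Ccnd1 (0.48) and Ccnd3 (-0.15) were not called. Of 25 tested (30 in the list) 3 rose and 8 fell, beside 16.6% and 16.7% of all tested probes. The median was -0.21, and under median scaling 4 rose and 1 fell. Without EB replicate 3, as without ES replicate 1, 1 rose and 5 fell. Ccnd2 (cyclin D2) had 10.46, 10.18 and 10.60 in EB, against 7.36, 7.41 and 7.03 in ES cells, a change of 3.15 ± 0.26 (SE; limma adjusted p = 2.1e-07, n = 3 each). Ccne1 (cyclin E1), which is high through the cycle of ES cells, had 6.99, 6.51 and 6.39 in EB, against 8.16, 8.60 and 8.41 in ES cells, a change of -1.76 ± 0.18. The falls of Aurka, a mitotic kinase (-1.14), and Rrm2, a ribonucleotide reductase subunit (-1.01), were not called under median scaling. Mcm7, a helicase subunit, was called lower at -0.45 but stood at 0.03 under median scaling. Top2a, a topoisomerase of dividing cells, had 9.81, 10.01 and 10.00 in EB, against 9.87, 9.84 and 9.85 in ES cells, with an interval of change of -0.24 to 0.41.

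The hypoxia and glycolysis genes had the lowest median of the 18 lists. Of 17 tested (20 in the list) 13 fell and 1 rose, beside 16.7% and 16.6% of all tested probes. The median was -1.34, and 12 fell without EB replicate 1. Under median scaling 7 fell and the list's median was -0.94, beside 0.253 for all probes. Slc2a1, the glucose transporter GLUT1, had 10.85, 10.21 and 10.08 in EB, against 12.13, 12.09 and 12.17 in ES cells, a change of -1.75 ± 0.18 (SE; limma adjusted p = 2.2e-06, n = 3 each). Pfkl, the liver form of phosphofructokinase, had 9.27, 9.18 and 8.88 in EB, against 10.74, 10.75 and 11.09 in ES cells. Ldha, lactate dehydrogenase A, had 12.00, 11.38 and 11.23 in EB, against 12.93, 12.79 and 12.92 in ES cells. For these 3 genes every EB array was below every ES array, and 41.1% of all tested probes had groups that did not overlap. Ankrd37, a target of the hypoxia inducible factor, fell by 2.35, and Egln3, the oxygen-sensing prolyl hydroxylase, by 1.62, which was not called under median scaling (-1.04; limma adjusted p = 0.057, n = 3 each). Vegfa, the angiogenic factor that hypoxia induces, rose instead, with 7.47, 8.71 and 8.81 in EB, against 7.20, 6.34 and 6.88 in ES cells. Gapdh had 12.51, 12.51 and 12.68 in EB, against 12.90, 12.58 and 12.77 in ES cells, and was not called (limma adjusted p = 0.22, n = 3 each).

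Among ligands and targets of WNT, BMP, TGF-beta and Notch, 11 of 25 tested genes (32 in the list) rose and 4 fell, beside 16.6% and 16.7% of all tested probes. The median was 0.31, or 0.48 without EB replicate 2, 0.55 without EB replicate 3 and 0.52 without ES replicate 3. Tgfb2, a TGF-beta ligand, was at least 2.89-fold higher, and Tgfbi, a matrix protein that TGF-beta induces, rose by 1.78. The WNT targets and antagonists Nkd1 (at least 2.80-fold higher) and Axin2 (1.26) rose together with Sfrp1 (1.23), a secreted WNT inhibitor. Ccn2 (connective tissue growth factor) fell by 2.22 at its furthest probe, with 8.10, 7.11 and 7.79 in EB, against 10.47, 9.24 and 9.96 in ES cells. Under median scaling 11 rose and 1 fell.

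Of all 417 listed genes 317 were tested, and 111 rose and 60 fell, beside 16.6% and 16.7% of all tested probes. The falls were near that share. The median was 0.20, and the plot of the gene lists gives each member. Under median scaling 119 rose and 17 fell. Of the 171 called genes only Plvap and Mcm7 had the opposite sign under that scaling.

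Outside the lists, the furthest riser was Cryba1, a crystallin of the lens and retina, with 11.40, 10.45 and 10.33 in EB, against 4.61, 5.25 and 4.20 in ES cells, a change of 6.04 ± 0.31 (SE; limma adjusted p = 1.9e-09, n = 3 each). Ctsj, a cathepsin of the placenta that belongs to a family of similar copies, had 10.58, 8.96 and 9.02 in EB, against 4.16, 4.19 and 4.13 in ES cells, at least 25.4-fold higher. Ptn (pleiotrophin), a secreted growth factor of developing brain and bone, rose by 4.71. Igfbp5, which binds insulin-like growth factors, rose by 4.51, and Meis2, a homeobox partner of Hox proteins, by 4.26. All 15 of the furthest risers lay at or above 7.88 on every EB array, as the plot of the furthest changes shows.

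The furthest fall was that of the immediate early gene Fos, which growth factors induce within minutes. It had 6.83, 5.67 and 6.01 in EB, against 11.19, 8.21 and 10.34 in ES cells, a change of -3.74 ± 0.73 (SE; limma adjusted p = 7.7e-04, n = 3 each). Fosb, a partner in the same complex, was at least 10.1-fold lower in EB, with 4.28, 4.25 and 4.14 in EB, against 9.26, 6.08 and 8.25 in ES cells. For both genes ES replicate 2 was the lowest ES array and still above all EB arrays. Arc, another immediate early gene, fell by 2.49 with close replicates, at 4.69, 4.60 and 4.67 in EB, against 7.01, 7.13 and 7.27 in ES cells. Mmp3, a matrix protease, was at least 7.64-fold lower, and the chemokine Cxcl1 fell by 2.85. Krt42, a keratin known from mouse epithelia, had 5.97, 6.66 and 6.67 in EB, against 9.12, 9.42 and 9.21 in ES cells, and averaged 4.14 in the fibroblasts. Plac8, named for its expression in placenta, fell by 2.57, and Aldoc, a glycolytic aldolase, by 2.49.

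**Figure D4:**
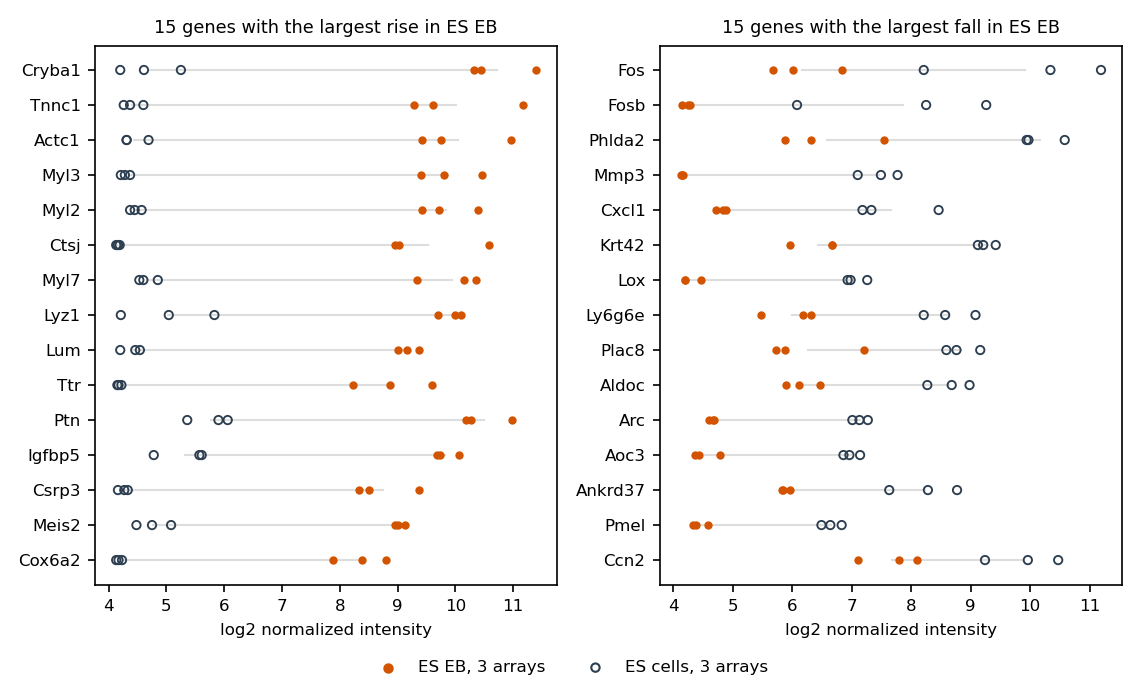
Levels (log2 normalised intensity) of the 15 genes with the furthest rises (left) and falls (right) among called probes whose groups do not overlap, with filled points for the 3 EB arrays, open points for the 3 ES arrays and grey lines between group means. Rises reach 6.04 for Cryba1, falls reach -3.74 for Fos, and the ES arrays spread most for Fos and Fosb.

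The same stages of the iPS line share no array with this comparison. Between iPS EB and iPS cells 3961 probes were higher (18.8%) and 3943 lower (18.7%), 37.6% in all. Of the 28 cardiac sarcomere genes, 19 were higher in EB of the ES line, against 21 in EB of the iPS line, and none was lower in either. Tnnc1 changed by 5.61 in the ES line, against 5.89 in the iPS line, and the difference of -0.28 was not called (limma adjusted p = 0.84, n = 3 each). The probe was detected on no ES and no iPS array, so both changes start near the floor and their sizes are not exact. Of the 34 pluripotency genes, 13 were lower in EB of the ES line (median -0.66), against 26 in EB of the iPS line (median -1.05). The test of the difference called 4 of the 34 with a higher change in the ES line, namely Zfp42, Fbxo15, Dppa2 and Dppa4, and 2 with a lower one, namely Otx2 and Tdgf1.

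Over all probes the difference of change between lines was called for 6.85% of those tested, with a higher change in the ES line for 785 probes (3.73%) and a lower one for 657 (3.12%). Both counts depend on single EB arrays. They were 1126 and 998 without EB replicate 1, 559 and 347 without EB replicate 2, and 576 and 387 without EB replicate 3. In the fibroblast and extracellular matrix list 8 of 29 differences were called, all with a higher change in the ES line. The list's mean level was 7.84, 6.76 and 6.75 on the undifferentiated iPS arrays, against 6.34, 6.41 and 6.34 on the ES arrays. On the EB arrays it was 6.76, 6.5 and 7.25 for iPS, against 7.35, 7.19 and 7.34 for ES. Lum rose in iPS EB too, by 1.97, from 7.08, 5.91 and 5.65 in iPS cells. The part of the higher iPS starting level, highest on iPS replicate 1, in these differences was not tested. Dcn changed by 3.42 in the ES line, against 0.24 in the iPS line, a difference of 3.18 (limma adjusted p = 5.4e-04, n = 3 each). Bgn changed by 0.02 in the ES line, against -2.92 in the iPS line. In the blood list 6 of 18 differences were called, all in the same direction, among them Lyz2 (3.29 in the ES line, -0.48 in the iPS line) and C1qb (2.52 and 0.49). Cryba1 changed by 6.04 in the ES line, against 1.05 in the iPS line, and Ctsj by 5.36 and 0.15. In the plot of both lines, which sets these changes side by side, the called differences lie off the line of equal change. Mesp1, a factor of nascent mesoderm, changed by 0.07 in the ES line, against 2.17 in the iPS line, a difference of -2.10 (limma adjusted p = 7.4e-04, n = 3 each).

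**Figure D5:**
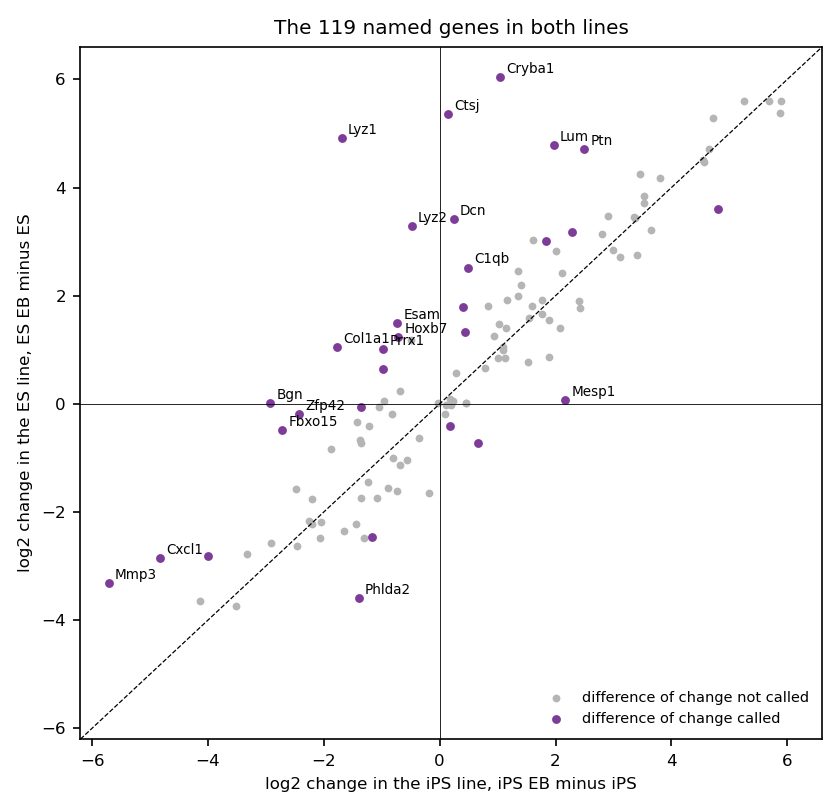
Change in the ES line (log2, EB minus ES cells, vertical axis) against the change in the iPS line (log2, iPS EB minus iPS cells, horizontal axis) for the 119 named genes, with equal change on the dashed line and genes whose difference of change was called in purple. Lyz1, Ctsj and Cryba1 lie furthest above the line, and Phlda2 and Mesp1 furthest below it.

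The EB arrays were also set against the puromycin-selected CM of the same day and batches, a comparison that shares these 3 arrays with the one above. The model did not pair EB and CM by batch. Between EB and CM 31.0% of tested probes were higher in EB and 31.3% lower, 62.3% in all. All pluripotency genes tested but Tbx3 were higher in EB than in CM, 33 of 34, and Pou5f1 averaged 10.09 ± 0.60 in EB and 4.19 ± 0.03 in CM (SD, n = 3 each), a difference of 5.90 with limma adjusted p = 2.3e-12. It was detected on no CM array and stood near the floor there, so the size of the difference is not exact. Of the 28 sarcomere genes 27 were lower in EB than in CM, and Tpm1 was higher. Tnnc1 averaged 10.02 ± 1.01 in EB and 14.04 ± 0.10 in CM (SD, n = 3 each), a difference of -4.02 with limma adjusted p = 6.2e-08. Of the 17 neural genes 15 were higher in EB and none lower, and Igf2 was lower in EB by 0.96.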

How the data were processed

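RNA was labelled as biotinylated cRNA and hybridised to Illumina bead arrays, per the labels' protocols. The deposited non-normalized table gives the authors' probe intensity (AVG_Signal) and a detection p-value for each array. The authors' normalized table holds linear intensities with the same sorted values on every array, as quantile normalisation gives, and it served as an alternative. From the non-normalized intensities, neqc of limma 3.58.1 (R 4.3.3) corrected the background, added an offset of 16, quantile-normalised all 21 arrays and took log2 of the deposited values. Gene symbols came from the platform annotation, matched on the non-normalized table's identifiers: 34885 probes had 1 symbol, 18 had several and 10378 had none, and 34807 symbols were updated through RefSeq (GRCm38.p6).

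The linear model had 19 samples in 7 groups, the 3 fibroblast arrays being averaged to 1, with 12 residual degrees of freedom. The series' design text gives the 18 stem cell samples as independent biological replicates of 1 ES line and 1 iPS line. EB and CM nevertheless came from the same batches, and the model did not pair them. Same-numbered EB and ES arrays did not deviate together (correlations of 0.009, 0.087 and -0.01), so no replicate block was used. Each gene of a list is represented by its tested probe with the highest mean level over the arrays. On simulated probes, 19.4% of changes of 0.5, 86.6% of changes of 1 and 97% of changes of 2 on the log2 scale were called. There were 11 false calls among 146. The simulation changed only 67, 67 and 66 of 21047 probes by these sizes, with independent normal errors. In the data 33.3% of tested probes were called, so the simulated rates need not hold for them. Precision is limited by the number of arrays.

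The comparison and the gene lists were chosen with earlier results of these data known, so no count over a list is independent evidence. Named genes followed a written rule (fixed markers, the furthest called changes with groups that do not overlap, and the furthest called members of each list), and every other named gene was chosen after its values were seen.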

Additional observations from a re-analysis of the deposited data

Results flagged for a closer look

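For 1442 probes the change between EB and undifferentiated cells differed between the ES line and the iPS line in the test of the difference itself (limma adjusted p under 0.05, n = 3 each). The values that follow are the change in the ES line minus the change in the iPS line, on the log2 scale. They were positive for Lyz1 (6.60 at the probe used), Lyz2 (3.77) and C1qb (2.03) of the blood list. Also positive were Ctsj (5.21), Cryba1 (4.99), Ptn (2.22) and the matrix genes Dcn (3.18), Bgn (2.93), Lum (2.82) and Col1a1 (2.81). Mmp3 (2.39) and Cxcl1 (1.97), which fell in both lines, and the mesenchyme factor Prrx1 (1.99) were positive too. Among pluripotency genes they were 2.24 for Fbxo15, 2.22 for Zfp42, 1.63 for Dppa2 and 1.30 for Dppa4. Endothelial Esam (2.23), Sox7 (0.90) and Emcn (0.89), Hoxb7 (1.96), Hoxa2 (1.40), neural Sox11 (1.18) and Krt42 (1.18) were positive as well. Negative values were found for Phlda2 (-2.19), Mesp1 (-2.10), Tek (-1.39), Aoc3 (-1.29), Dlk1 (-1.19) and Matn1 (-0.58). Lyz1 and Lyz2 averaged 14.11 and 13.60 in the fibroblasts, against 9.93 and 7.52 in EB of the ES line. The summed normalised intensity of the blood list was 43805 to 50506 in the fibroblasts, against 1891 to 2880 in these EB. Lyz1 had 8.36, 6.69 and 6.69 in iPS cells. Replicate 1 was also the highest iPS array for the mean level of the fibroblast and extracellular matrix list (7.84, 6.76 and 6.75). The part of fibroblast RNA in any of these differences was not tested. With 1 line of each kind, the line and its origin cannot be told apart.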

How the results depend on the processing

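Median scaling gave 308 probes lower, 2072 risen 2-fold or more, 111 fallen as far and 17 list members lower. By the signed difference of change, 175 probes had a higher and 81 a lower change in the ES line than in the iPS line. At least 2-fold lower probes numbered 448 without background correction and 316 in the authors' normalized table, where 612 were at least 2-fold higher. With only the compared groups in the fit 2304 probes were lower, and 404 and 280 had a higher and a lower signed change in the ES line. Leaving out 1 EB or ES array at a time gave 347 to 998 probes with a lower signed change in the ES line. Those with a higher one numbered 559 to 1126. No array of the iPS line was left out. With the replicate number as a block 3426 probes were higher and 3543 lower, and the calls of Col1a1 and Myl9 were lost. Same-numbered EB and ES samples share a passage label, while a common culture of EB and ES cells is not stated. The plot of both lines holds 89 called genes, which the written rule names except for Tek, chosen after its values were seen. Of these, between 79 and 88 were called under each alternative, and none of them turned its sign. Those lost under median scaling were Lin28a, Dppa3, Esrp1, Cldn4, Coro1a, Matn1, Aurka, Rrm2, Egln3 and Tek. Of other genes in the text Utf1, Dnmt3b, Otx2, Stmn2, Crmp1, Plvap and Mcm7 also lost their call there, and Plvap and Mcm7 turned sign. The causes of these shifts were not tested. The slide as a block was not run, because the headers name no slide. Limits: 3 arrays a group, 1 ES line, bulk RNA of mixed cells, and signals near background, where differences are bounds.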

Other observations

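EB replicate 1 differed from EB replicates 2 and 3 in named genes of several kinds, all chosen after their values were seen. Chac1, a glutathione-degrading enzyme induced by amino acid and unfolded protein stress, had 6.78 in EB replicate 1 and 10.17 and 10.38 in the other EB arrays, against 6.93, 7.51 and 7.27 in ES cells. Trib3 and Nupr1, which the same stress response induces, had 5.91 and 6.93 in EB replicate 1. Trib3 read 8.60 and 8.75 in EB replicates 2 and 3, against 6.96, 7.51 and 7.02 in ES cells. Nupr1 read 9.50 and 9.64 in EB replicates 2 and 3, against 7.39, 7.98 and 7.74 in ES cells. For all 3 genes EB replicate 1 lay below every ES array and the other EB arrays above them.

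Dazl and Zscan4c had the same order of EB arrays, whereas Dppa3, also a gene of the early embryo and germ line, had the opposite one. Dazl, an RNA-binding protein of germ cells, had 6.13 in EB replicate 1 and 8.84 and 9.07 in the others, against 6.26, 5.40 and 5.82 in ES cells. Zscan4c, a gene of the mouse embryo at genome activation and of a transient ES state, had 5.46 in EB replicate 1 and 8.64 and 8.60 in the others, against 4.62, 5.41 and 4.51 in ES cells. It belongs to a family of similar copies, so its signal may be shared among them. On the other side, Myl1, a light chain of skeletal and atrial muscle, had 9.41 in EB replicate 1 and 6.01 and 6.55 in the others. Crabp1, a retinoic acid binding protein, had 8.32 in EB replicate 1 and 5.76 and 5.77 in the others, against 6.76, 6.74 and 6.93 in ES cells. Ambp, a liver plasma protein precursor, had 7.05 in EB replicate 1 and 4.29 and 4.20 in the others.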
